A study of Arabidopsis thaliana with 13 samples.

Results

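The genes described here are C3H14 (AT1G66810) and PRX66 (AT5G51890), both of which are tied to the walls of xylem vessels. They were chosen by name, 2 of the 16548 genes to which the platform annotation assigns a probe set, and each had 1 probe set. Earlier results of these data were known then, so the p-values of these 2 genes are not those of a blind choice. Both were among the 10982 genes left after the dimmest probe sets were dropped. The samples were 13 RNA preparations of Arabidopsis thaliana cotyledons (accession Col-0, seedlings 6 days old and raised in liquid medium under continuous light), cultured in an induction medium and collected every 6 h. All samples after 0 h were exposed to 3 agents: bikinin, an inhibitor of GSK3-like kinases, at 10 µM; the auxin 2,4-D at 1.25 mg/L; and kinetin, a cytokinin, at 0.25 mg/L. The groups are 0 h (1 array), the first day (6, 12, 18 and 24 h), the second day (30, 36, 42 and 48 h) and the third day (54, 60, 66 and 72 h), with 4 arrays in each day. Each time point was hybridised to 1 array, there was no culture without the medium, and cotyledons are a mixture of cell types. Neighbouring times therefore stand in for replicates, the SD of a day holds change within that day, and a p-value here reflects no more than the scatter of these arrays. The lone 0 h array was assumed to vary like the others.

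Xylem vessels are dead, hollow cells whose secondary walls of cellulose, xylan and lignin let them carry water under tension. In Arabidopsis a cascade of NAC and MYB transcription factors switches on the enzymes that build these walls, and C3H14, a protein with tandem CCCH zinc fingers, is a target of the MYB level of that cascade and activates wall genes in turn. PRX66 is a class III peroxidase, a secreted haem enzyme that uses hydrogen peroxide to oxidise lignin precursors in the wall, and it is known from vessels. The culture system, VISUAL, turns mesophyll cells of the cotyledon into xylem and phloem cells.

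All levels are log2 signals less the median of their array, the log base being taken as log2 because the sources used here do not state it. The deposited array medians lay between 5.15 and 5.35 for 0 to 24 h and between 5.82 and 5.99 for 30 to 72 h, a difference of 0.67 between the means of the 2 sets. The break falls between the first and the second day, so for any comparison across it the array set and the time cannot be told apart. Leaf identity was visible at 0 h: the 6 measured of 14 mesophyll markers, all photosynthesis genes, stood far above the array median, with PSBW at 7.31, RCA at 6.49, SBPASE at 6.21, PSAN at 5.56, PRK at 4.34 and AT3G08940 at 4.03. Their summed linear level, in units of the array median, was 406 at 0 h, 115 to 272 on the first day, 37.5 to 57.2 on the second and 27.4 to 36.8 on the third. Over the same days the 3 measured of 13 procambium markers had summed levels of 8.06 at 0 h, 9.91 to 12.0, 14.3 to 19.1 and 18.9 to 22.1. The 3 measured of 17 phloem markers, summed, were at 74.6 at 0 h, 29.0 to 53.1, 14.7 to 27.3 and 10.1 to 13.1, but at 0 h nearly all of that sum was SWEET11, a sugar transporter gene with a level of 6.21, and the markers moved in opposite directions. On the third day against the first, SWEET11 fell by 2.83 on the log2 scale, whereas CLE45, which encodes a signal peptide, rose by 3.53 and OPS, a regulator of phloem formation, by 1.74 (limma adjusted p = 1.69e-05, 3.77e-07 and 0.000166). Of the procambium markers, AT5G02460 and BRL1, a brassinosteroid receptor gene, rose by 1.89 and 1.85 and LHW, a transcription factor gene, had a difference of 0.25. The part that these shifts in marker levels have in the results below was not tested, and in whole cotyledons more cells of a type and more RNA per cell cannot be told apart.

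C3H14 rose late. From 0 to 24 h its levels were, in order of time, -0.63, -0.17, 0.41, 0.66 and 0.26. From 30 to 48 h they were 0.06, -0.01, 0.13 and 0.36, and from 54 to 72 h they were 1.06, 1.44, 1.44 and 2.17. The 4 arrays of the third day were higher than all 9 arrays before them. On this centred scale the 4 of the second day lay within the range of the first day, a comparison that crosses the break in array medians. As deposited, the second-day values were 5.95, 5.84, 6.10 and 6.36, and the highest of the first day was 5.94. The lowest level was at 0 h and the highest at 72 h, 6.96-fold apart. Ordered by level, 4 of the 12 gaps between neighbours were larger than 0.298, the SD of the gene about its smooth course. These separated 0 h from 6 h, 18 h from 54 h, 54 h from 60 h and 66 h from 72 h, whereas the 8 levels from 6 to 48 h differed from their neighbours by less than that spread. Up to 48 h its signal was close to the median of each array.

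PRX66 rose between 12 and 24 h, dipped and rose again. From 0 to 24 h its levels were 3.46, 3.05, 3.46, 5.57 and 6.26. From 30 to 48 h they were 5.45, 4.79, 5.03 and 5.78, and from 54 to 72 h they were 5.74, 5.97, 6.57 and 6.90. The 0, 6 and 12 h arrays were lower than the other 10 and were separated from them by 1.33, the single gap among 12 that exceeded 0.622, the SD of the gene about its smooth course. On the centred scale the 24 h array was higher than every array of the second day and than those of 54 and 60 h. That order crosses the break in array medians and depended on the scale. As deposited, PRX66 stood at 11.61 at 24 h, below 11.77 at 48 h, 11.67 at 54 h and 11.84 at 60 h. The lowest level, at 6 h, and the highest, at 72 h, were 14.4-fold apart.

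**Figure D1:**
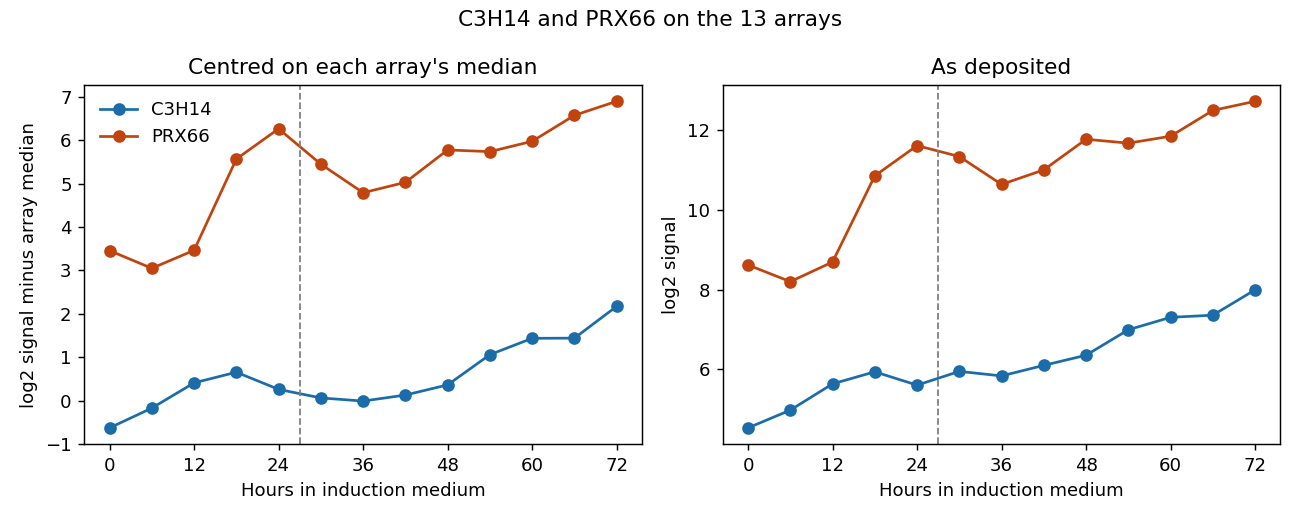
Levels of C3H14 and PRX66 by hours in the induction medium, as log2 signal less the array median (left) and as deposited (right). Each point is 1 array and the dashed line marks the break in array medians between 24 and 30 h. On the centred scale PRX66 stood at 6.26 at 24 h, against 3.46 at 12 h, and C3H14 reached its highest level, 2.17, at 72 h.

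Most of the early climb of PRX66 lay in 1 step, after a smaller step of 0.41 between 6 and 12 h. Between 12 and 18 h it rose by 2.10 on the log2 scale, or 4.29-fold, and only 4 of 10982 genes, itself included, had a step that large in that interval (0.0364%). The others were AT1G48720, AT1G09890 and AT5G40020, named after their values were seen. A further step of 0.70 followed by 24 h, where 4.56% of genes had one as large. The arrays of 12, 18 and 24 h all belong to the first set. C3H14 changed by 0.25 between 12 and 18 h and by -0.40 between 18 and 24 h. Its own first climb came earlier, with steps of 0.46 and 0.58 to 6 and 12 h, where 18.9% and 5.85% of genes had steps as large. None of these arrays has a replicate, so the steps are values of single arrays and carry no test.

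The dip of PRX66 from 24 to 36 h measured -1.47 on the log2 scale, a 2.78-fold drop. Of this, -0.82 lay between 24 and 30 h, across the break in array medians, and -0.66 between 30 and 36 h, within the second set, where 1.5% of genes fell as much or more. On the values as deposited PRX66 stood at 11.61 at 24 h, 11.34 at 30 h and 10.64 at 36 h, so the dip was there without centring too. For C3H14 the matching decline depended on the scale: its deposited values were 5.61 at 24 h, 5.95 at 30 h and 5.84 at 36 h.

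**Figure D2:**
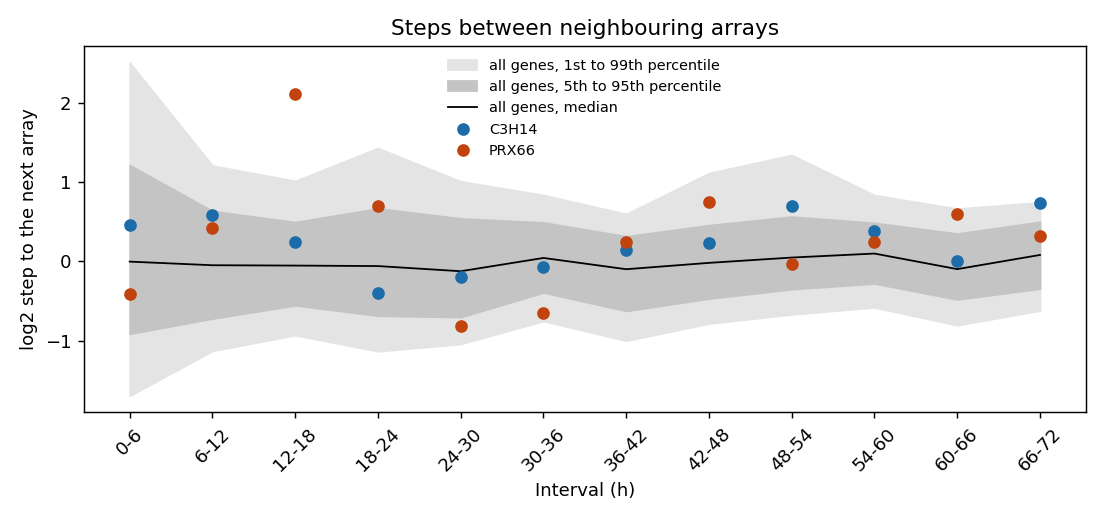
Steps in level from each array to the next for C3H14 and PRX66, in log2, against the percentiles of the steps of all 10982 genes. The PRX66 step from 12 to 18 h, 2.10, lies above the band of that interval, and the C3H14 step from 66 to 72 h, 0.73, lies close to the upper edge of its band.

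Within the second set of arrays, both genes rose. A line fitted to the 8 arrays of 30 to 72 h gave C3H14 a change of 2.22 ± 0.24 (SE, log2 over 42 h), or 4.66-fold, with a limma adjusted p of 0.000139. PRX66 gained 1.82 ± 0.30 (SE), or 3.53-fold, with a limma adjusted p of 0.00133. A gene was called where the Benjamini-Hochberg adjusted p over all 10982 genes was under 0.05 and the log2 change at least 1, and by that rule 6.96% of all genes were higher and 5.89% lower along this slope. Both genes were among the higher ones. These calls held in all 19 other settings, with changes between 1.99 and 2.56 for C3H14 and between 1.61 and 2.40 for PRX66. This comparison does not cross the break in array medians.

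In the third day against the second, C3H14 passed and PRX66 did not. Its level was 1.53 ± 0.47 on the third day, against 0.14 ± 0.16 on the second day (SD, n = 4 arrays each), a 2.62-fold rise (limma adjusted p = 0.00134). The levels of PRX66 were 6.30 ± 0.53 on the third day and 5.26 ± 0.44 on the second day (SD, n = 4 arrays each), a log2 difference of 1.03 ± 0.60 (SE) that did not pass (limma adjusted p = 0.298). In this comparison 5.37% of all genes were called, 3.91% higher and 1.47% lower. The days of PRX66 overlapped narrowly, the 54 h array at 5.74 lying below the 48 h array at 5.78. The error of PRX66 here includes its climb within the first day, where the SD was 1.57. In a fit without the 5 arrays of the first set, the same difference had an SE of 0.28 and passed (limma adjusted p = 0.0267). Whether the 2 genes rose by different amounts was tested directly on the difference between them within each array. PRX66 less C3H14 was 4.77 ± 0.26 on the third day and 5.12 ± 0.32 on the second day (SD, n = 4 arrays each), a change of -0.36 (exact permutation test, two-sided, p = 0.143, the smallest possible p being 0.0286).

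Against the first day, the third day was higher for both genes. C3H14 stood at 1.53 ± 0.47 on the third day and 0.29 ± 0.35 on the first day (SD, n = 4 arrays each), 2.36-fold higher, with no overlap (limma adjusted p = 0.000447). PRX66 stood at 6.30 ± 0.53 and 4.59 ± 1.57 on those days (SD, n = 4 arrays each), 3.27-fold higher (limma adjusted p = 0.0252). On this centred scale its 24 h array lay within the third-day range. As deposited, the 24 h array, at 11.61, lay just below the third-day arrays, which spanned 11.67 to 12.72. In this comparison 8.88% of all genes were called higher and 14.8% lower. The call of PRX66 ended without the 6, 12, 66 or 72 h array, with adjusted p between 0.0593 and 0.0806, and the comparison crosses the break in array medians.

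The first and the second day gave no call for either gene. On the first day C3H14 averaged 0.29 ± 0.35 (SD, n = 4 arrays), against -0.63 at 0 h, a log2 difference of 0.92 ± 0.35 (SE, limma adjusted p = 0.079). That difference passed with quantile normalization, with array weights and without the 6 h array, with differences between 1.04 and 1.09. PRX66 averaged 4.59 ± 1.57 (SD, n = 4 arrays) on the first day, against 3.46 at 0 h (limma adjusted p = 0.428). That mean hides the split described above, with 6 and 12 h at or below the 0 h level and 18 and 24 h well above it. In the second day against the first, the log2 differences were -0.15 ± 0.22 for C3H14 and 0.67 ± 0.60 for PRX66 (SE, limma adjusted p = 0.574 and 0.349). On the first day against 0 h, 6.3% of all genes were called higher and 5.49% lower, and on the second day against the first, 5.11% and 8.3%. The median of all genes in the second day against the first was -0.25, and 0.42 on the values as deposited, where C3H14 changed sign to 0.52 (limma adjusted p = 0.0668).

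Over the whole course both genes passed the test for change with time, with a fitted range of at least 1 on the log2 scale, as did 46.2% of all genes, made up of 16.8% whose curve ended higher at 72 h than at 0 h and 29.4% whose curve ended lower. The fitted range was 2.66 for C3H14 and 4.20 for PRX66 (natural spline with 3 degrees of freedom, limma F test, adjusted p = 3.24e-05 and 0.000289). For PRX66 the curve spanned more than the observed levels, which were 3.85 apart, so its fitted range is not a measured change. With a term for the 2 array sets the adjusted p were 0.000253 and 0.00462.

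The courses of the 2 genes were alike in outline and not in detail. Across the 13 arrays their Pearson r was 0.748, which placed PRX66 at rank 777 of 10981 genes by likeness to C3H14, and C3H14 at rank 606 by likeness to PRX66. Over the 8 arrays of 30 to 72 h r was 0.915 and over the 5 arrays of 0 to 24 h it was 0.58. The steps from array to array had an r of 0.07. All of these are descriptions of series of neighbouring times on shared arrays.

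The 8 genes most like C3H14 over the 13 arrays were AT5G08770, AT5G05110, AT3G03610, AT2G27770, AT2G28870, AT3G03770, AT5G46910 and AT1G56423, with r between 0.966 and 0.978. Over 30 to 72 h alone their r lay between 0.955 and 0.988. In each of them the mean of the third day was the highest of the day means. They differed in size: AT5G08770 spanned 0.82 on the log2 scale over the 13 arrays and AT3G03610 spanned 2.58. The 8 most like PRX66 were AT5G40020, AT1G23460, AT5G60720, AT1G70500, AT5G06930, AT3G45710, AT4G24430 and AT4G26580, with r between 0.925 and 0.952 over the 13 arrays and between 0.883 and 0.975 over 30 to 72 h. AT5G40020 had the same step between 12 and 18 h, 2.15 against 2.10 for PRX66. AT1G70500 spanned 5.91 on the log2 scale, the most of the 8. Along the slope over 30 to 72 h AT5G40020 gained 3.80 on the log2 scale. Since these 16 genes were picked by this likeness, their values support nothing further.

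**Figure D3:**
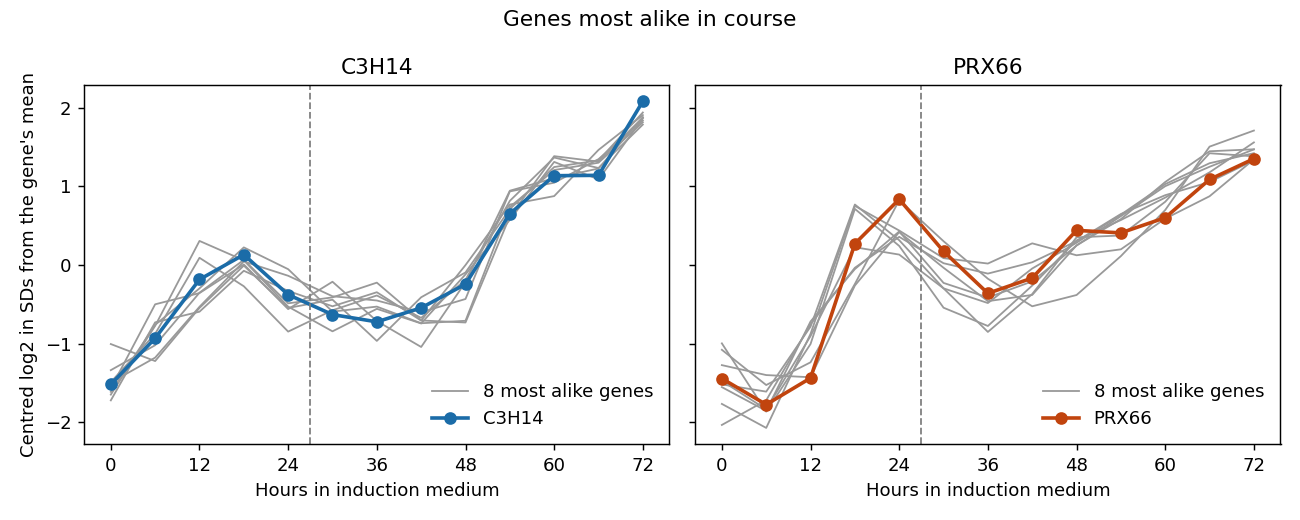
Courses of C3H14 (left) and PRX66 (right) with the 8 genes most alike to each, as centred log2 levels in SDs from each gene's own mean over the 13 arrays. The dashed line marks the break in array medians. The left-hand genes peaked late, with r of 0.966 or more to C3H14, and the right-hand genes also climbed by 18 to 24 h, with r of 0.925 or more to PRX66.

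PRX66 was set beside a list of 72 other class III peroxidase genes. The annotation gave 63 of these a probe set and 35 passed the filter on dim probe sets. Along the slope over 30 to 72 h, 5 of the 35 rose and 6 fell, with a median log2 change of 0.15, beside 6.96% of all genes higher, 5.89% lower and a median of 0.04. The largest rise was that of PRX72 (AT5G66390), a peroxidase that, like PRX66, is tied to lignin: 3.42 ± 0.27 (SE, log2), or 10.7-fold (limma adjusted p = 3.53e-05). AT2G18150, AT3G21770, AT2G34060 and AT4G36430 rose by 2.40, 2.14, 1.71 and 1.44 on the log2 scale. The rise of AT4G36430 fell to 0.99, under the threshold, without the 30 h array. AT4G37530 fell by 1.92, AT3G17070 by 1.86 and AT2G38380 by 1.46. AT2G18150, AT2G38380 and AT4G37530 each have a close copy as genome neighbour, and how far their probe sets tell the copies apart was not tested.

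**Figure D4:**
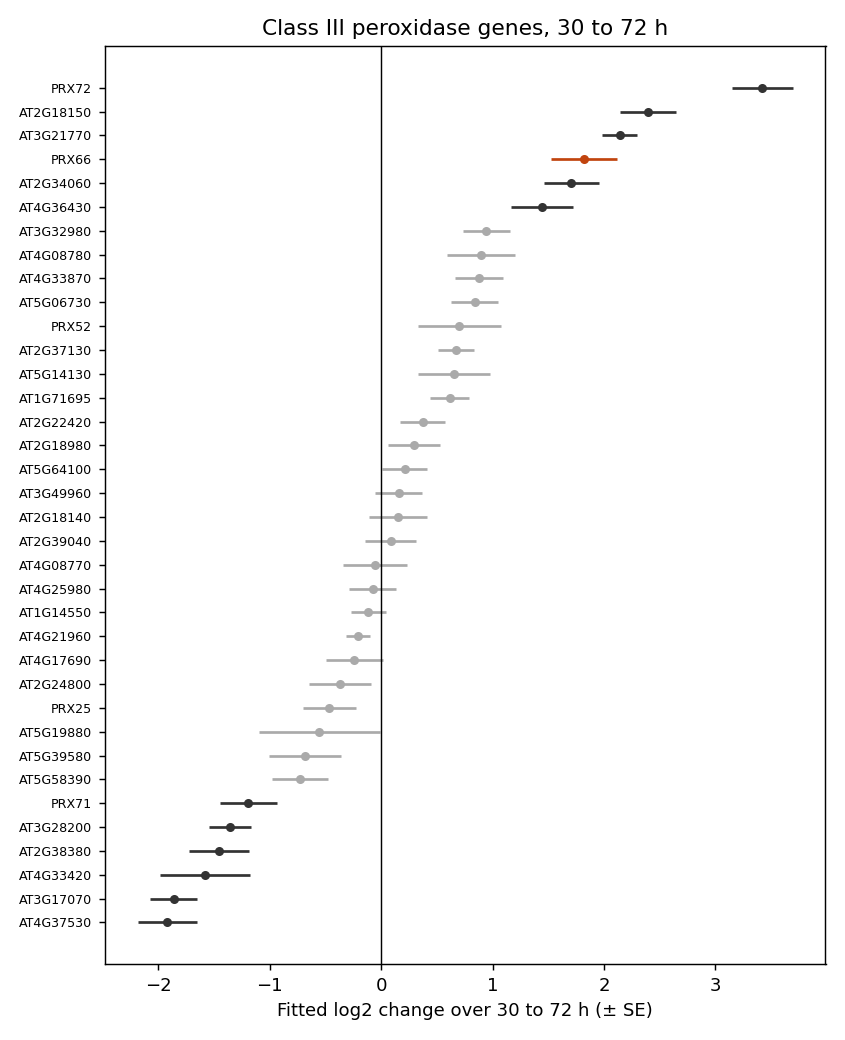
Fitted log2 change over 30 to 72 h, with its SE, for PRX66 (orange) and the 35 other class III peroxidase genes that passed the filter, sorted by size, over 8 arrays. Dark points passed the call and light grey points did not. PRX66, at 1.82, lies among 5 other genes that rose, below PRX72 at 3.42, and 6 genes fell.

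Between days, too, members of the family moved both ways. On the first day against 0 h, 1 of the 35 rose and 5 fell, beside 6.3% of all genes higher and 5.49% lower. AT2G22420 was the gene that rose, by 2.80-fold (limma adjusted p = 0.0112), a call that ended on the arrays of 0 to 24 h alone, as did those of 3 of the 5 genes that fell (AT2G18980, AT2G37130 and PRX71). AT5G39580 fell by 4.25 on the log2 scale (limma adjusted p = 1.19e-06) and stayed below the array median from 6 h on. In the second day against the first, 6 of the 35 rose and 5 fell, beside 5.11% of all genes higher and 8.3% lower. In the third day against the second, 4 of the 35 rose and 2 fell, beside 3.91% of all genes higher and 1.47% lower. The rises were those of PRX72 by 4.09-fold (limma adjusted p = 0.00248), AT3G21770 by 2.40-fold, AT2G18150 by 2.36-fold and AT2G34060 by 2.13-fold, and the falls were those of AT4G37530 and AT3G17070. The call of AT2G18150 ended without the 30, 36, 42, 66 or 72 h array and that of AT2G34060 without the 36 or 72 h array, and that of AT3G17070 without the 30 or 36 h array.

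A list of 7 other peroxidases linked to lignin, written after the annotation's coverage was known, was measured in full. On the third day against the first, 4 of the 7 rose and 2 fell, beside 8.88% of all genes higher and 14.8% lower, in a comparison that crosses the break in array medians. PRX72 had levels of -0.37, -0.55, -0.50, -0.08 and 0.49 from 0 to 24 h, -0.04, -0.30, 0.10 and 0.83 from 30 to 48 h and 1.33, 1.82, 2.71 and 2.87 from 54 to 72 h. Among the arrays of 30 to 72 h it was lowest at 36 h, as were PRX66, C3H14, AT2G34060 and further genes. The 4 third-day arrays of PRX72 were higher than all arrays before them. Among the 35 peroxidases PRX72 was the most like C3H14 over the 13 arrays (r = 0.906), and AT2G34060 the most like PRX66 (r = 0.816, against 0.807 for PRX72).

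AT2G22420 climbed up to 36 h and stayed between 2.59 and 2.97 after that. Its mean was 2.83 on the third day, 2.65 on the second, 1.50 on the first and 0.01 at 0 h, and the third day was 2.53-fold higher than the first (limma adjusted p = 0.000279). AT4G36430 and PRX52 (AT5G05340) were 4.38-fold and 2.89-fold higher on the third day than on the first (limma adjusted p = 5.29e-05 and 0.000495). AT4G33420 went the other way. It stood at 5.04 at 0 h, then at 2.05, 2.07, 2.69 and 2.71 on the first day, 2.11, 1.49, 0.98 and 0.33 on the second and 0.04, 0.55, 0.70 and 0.19 on the third. PRX71 (AT5G64120) fell likewise, with a mean of -0.15 on the third day, 0.65 on the second, 1.97 on the first and 4.90 at 0 h. Both were lower on the third day than on the first, by 2.01 and 2.13 on the log2 scale (limma adjusted p = 0.00018 and 0.000313). PRX25 (AT2G41480) stayed between -0.79 and 0.12 and passed in no comparison between days.

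**Figure D5:**
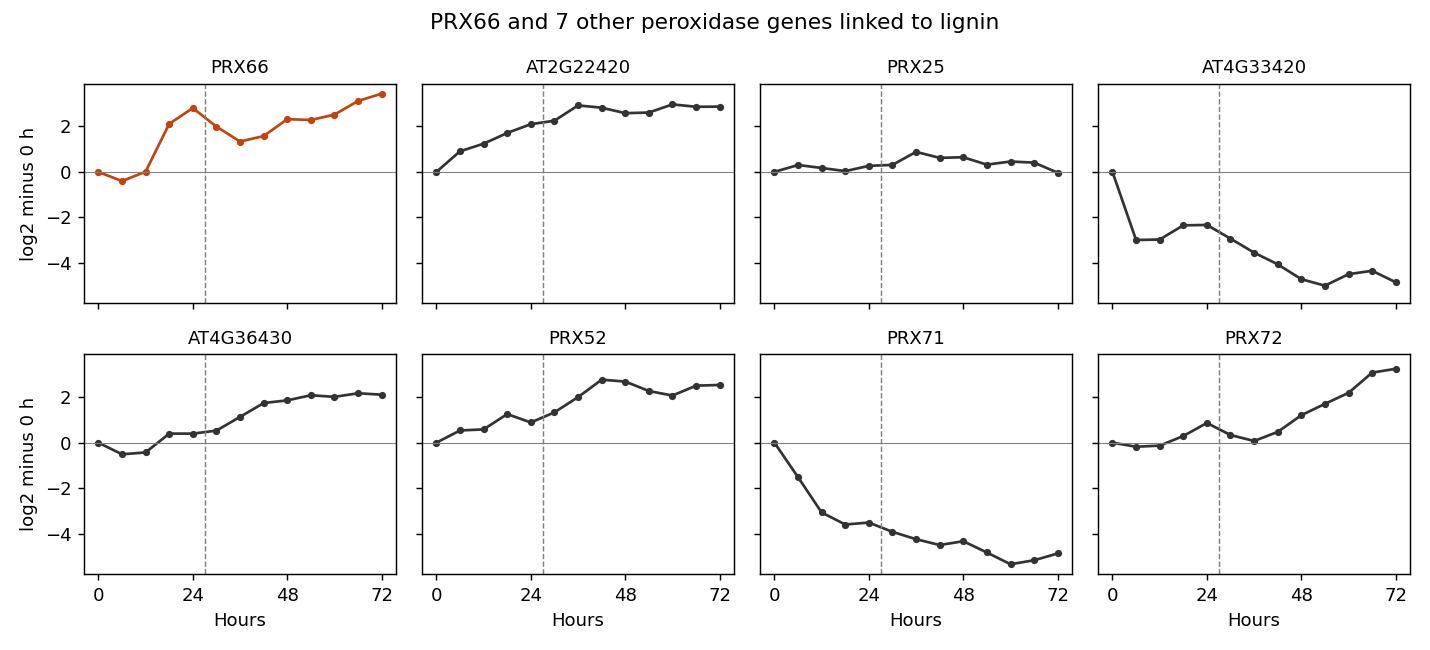
Levels of PRX66 and 7 other peroxidase genes linked to lignin, as log2 differences from 0 h, by hours in the induction medium, with 1 array per point and the dashed line at the break in array medians. At 72 h PRX66 stood 3.44 above its 0 h level, and AT4G33420 and PRX71 stood far below theirs.

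Other genes of wall building were thinly covered. None of the 32 regulators listed with C3H14, such as the NAC and MYB switches of the cascade, had a probe set named by the annotation, nor did any of 6 genes of secondary wall cellulose or 6 genes of vessel cell death, and these were not analysed here. Among 12 tandem CCCH zinc finger genes besides C3H14, AT5G12850 was measured, with a log2 change of -0.08 over 30 to 72 h (limma adjusted p = 0.659). Of 24 xylan genes 6 were measured, and 5 rose over 30 to 72 h, beside 6.96% of all genes higher, with a median of 2.64 for the 6, beside the 0.04 of all genes. IRX15, which acts in xylan synthesis, rose 7.63-fold and TBL33, which acts in xylan acetylation, 8.23-fold (limma adjusted p = 1.36e-05 and 5.36e-05). IRX15-L, TBL34 and GUT2, a glycosyltransferase gene of xylan synthesis, rose 7.40-fold, 5.12-fold and 5.21-fold (limma adjusted p = 6.73e-05, 0.000221 and 4.81e-05). GUT1, the close relative of GUT2, had a change of 0.40, under the threshold of 1 (limma adjusted p = 0.0236). Of 18 genes of lignin precursor synthesis 2 were measured. HCT, which encodes a transferase of that pathway, rose 2.86-fold over 30 to 72 h (limma adjusted p = 2.59e-05). That rise followed a decline, with levels of 4.24 at 0 h, 3.75 at 24 h, 3.17 at 30 h and 4.68 at 72 h. HCT averaged 4.30 over 54 to 72 h and 4.01 over 6 to 24 h. This log2 difference of 0.28 did not pass (limma adjusted p = 0.234) and crosses the break in array medians. CCR2, a cinnamoyl-CoA reductase gene, had a change of 0.43 over 30 to 72 h (limma adjusted p = 0.197). LAC16, the 1 measured of 17 laccase genes, had a change of 0.03 (limma adjusted p = 0.933).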

How the data were processed

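Per the labels, biotinylated cRNA was made from total RNA with a one-cycle kit and hybridised to Affymetrix arrays. The authors deposited 1 table of signals, taken here as log2 from their range. Background correction, summary, scaling and log base are not given in the sources used. GCOS appears in the submitters' processing notes. The number of arrays limits the precision.

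Of 38408 probe sets, 16722 had 1 gene, 759 several and 20927 none. Names were updated through gene identifiers to TAIR10.1, which matched 16574. Arrays were centred on their medians, the lowest 30% of probe sets by mean were left out and the probe set with the highest mean was kept per gene, which left 10982 genes. limma 3.58.1 in R 4.3.3 (eBayes with an intensity trend) fitted 1 mean per window over 13 arrays, a natural spline of 3 degrees of freedom and a slope over 8 arrays. The fits were also run on simulated data with independent noise on each array and no break between array sets. That run therefore says nothing on likeness between neighbouring times or on the break. Figures used matplotlib 3.10.9.

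The 2 genes and the lists were chosen with earlier results of these data known, and the list of 7 lignin peroxidases was written after the annotation's coverage was known. Named were the 8 most alike genes by Pearson r, all measured genes of lists of up to 6 and otherwise the 3 largest called rises and falls between the third and second day. Other peroxidases, and genes named by their slope or by other days, were chosen after their values were seen. A part of that rule on protein identity was not used here. Alternatives were other scalings, filters, floors, eBayes settings, windows and splines, array weights and leaving out each array.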

Additional observations from a re-analysis of the deposited data

Results flagged for a closer look

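In 225 groups of 4 arrays (75 genes, 3 days), 5 held an array far from the others of its day, where chance alone marks about 1 in 20 groups, and neither C3H14 nor PRX66 was among them. AT2G34060 stood at 1.25 at 24 h, against 0.26 for the next highest array of the first day. AT4G25980 stood at -0.46 at 18 h, against -0.01 for the next lowest. AT4G33870 stood at -0.87 at 6 h, against -1.41 for the next highest. AT5G64100 stood at -1.35 at 36 h, against -1.71 for the next highest of the second day. AT1G14550 stood at -1.41 at 48 h, against -1.20 for the next lowest.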

How the results depend on the processing

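Of 303 alternative values of 13 results on C3H14 and PRX66, 292 kept their direction and side of the threshold. Some of these left out an array of neither day compared, where the difference itself could not change. Of 146 alternative values of 6 counts of called genes, in both directions together, 142 lay within 1.5 times the count reported, which says nothing of the split by direction. For C3H14 on the first day against 0 h, the log2 difference passed at 1.09 with quantile normalization, 1.04 with array weights and 1.07 with the last 3 arrays of each day, and ranged from 0.79 to 1.07 without single arrays. Its second day against the first turned from -0.15 to 0.52 on the values as deposited and to 0.037 with centring on probe sets with 1 gene. PRX66 on the third day against the first ranged from 1.20 to 2.27 without single arrays. On the third day against the second, PRX66 passed at 1.03 with the arrays of 30 to 72 h alone. Genes called on the first day against 0 h numbered 1295, and 444 with the arrays of 0 to 24 h alone. The second day against the first gave 1473, and 2279 with no filter. The course gave 5076, and 8893 with no filter and 3245 with the lowest 50% left out, settings that change the number of genes tested. The share of called genes that were higher was 38.1% on the second day against the first, and 92.3% on the values as deposited. On the third day against the first it was 37.5%, and 79.7% as deposited, and along the course 36.4% and 75.8%. The deposited values keep the difference of 0.67 between the mean array medians of the 2 sets, which centring removes. The cause of that difference was not tested. Of 56 results on other named genes, 39 kept their call in every setting run. No paired analysis was possible because each time point has 1 array and the labels give no replicate numbers.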
